A study of Mus musculus with 8 samples.

Results

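The genes described here are 40 components of the DNA replication machinery, chosen by name and not by their values in these libraries. They were matched by symbol through their Ensembl identifiers, and all 40 were found among the 52338 gene rows that held values. They were measured by RNA-seq in mouse embryonic stem cells, self-renewing cells taken from early embryos. The series follows linc1393, a long intergenic noncoding RNA studied for its part in keeping these cells pluripotent. There were 4 groups of 2 libraries, numbered 1 and 2 in each group. The control group was wild type and untreated. The other 3 groups, named sh, sd and dd, were each treated with an agent against linc1393: sh is labelled as treated with sh-linc1393, sd with sd-linc1393 and dd with dd-linc1393. The labels leave out what the sd and dd agents are, whether a non-targeting agent was used, the cell line, the time after treatment and what the numbers 1 and 2 stand for. Whether libraries with different numbers are separate cultures is also unknown, and the spread behind each p-value may be technical. No row was tied to linc1393 here, so its level was not used to check the labels.

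Before a cell copies its genome, the origin recognition complex marks start sites on DNA, and Cdc6 and Cdt1 load the ring-shaped MCM2-7 helicase onto them, which is called licensing. At the start of S phase, Cdc45 and the GINS complex join the ring and switch it on, and primase, DNA polymerases, the sliding clamp and its loader follow. Embryonic stem cells divide fast with a short first gap phase, and many of these genes are known targets of the E2F transcription factors. In RNA from a whole culture, a different share of cells in S phase and a different amount of RNA per cell cannot be told apart.

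Promoters of this class of genes are known for E2F letters. Those of 3 helicase genes are printed because they differ in these letters and the genes differed in direction between the replicate numbers. RefSeq promoters (GRCm38.p6) were matched for 32 of the 40 members. Each window held 250 bases before and 50 after a gene's start, and 4 words of 8 bases were searched on both strands, allowing overlaps: TTTGGCGC, TTTCGCGC, TTTCCCGC and TTTGCCGC. At least 1 word stood in 12 of the 32 member promoters (37.5%), against 744 of all 32851 promoters in the table (2.26%). The members were counted with 1 promoter each, while the table can hold several for a gene, so the shares differ in unit. The 250 bases before the start follow, 5′ to 3′ on the strand of the gene, with the words in capitals.
Mcm2, chr6:88898781-88899030, minus strand: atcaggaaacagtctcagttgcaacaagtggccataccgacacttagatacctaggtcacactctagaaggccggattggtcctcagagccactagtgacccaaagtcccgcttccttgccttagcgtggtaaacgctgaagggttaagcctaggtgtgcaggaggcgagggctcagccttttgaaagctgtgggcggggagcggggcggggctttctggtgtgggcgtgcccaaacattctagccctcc
Mcm5, chr8:75109259-75109508, plus strand: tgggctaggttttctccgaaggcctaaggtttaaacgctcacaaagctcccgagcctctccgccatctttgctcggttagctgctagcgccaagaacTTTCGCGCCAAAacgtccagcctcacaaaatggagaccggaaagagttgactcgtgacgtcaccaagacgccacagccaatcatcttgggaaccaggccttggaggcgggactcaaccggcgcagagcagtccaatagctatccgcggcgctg
Mcm6, chr1:128359706-128359955, minus strand: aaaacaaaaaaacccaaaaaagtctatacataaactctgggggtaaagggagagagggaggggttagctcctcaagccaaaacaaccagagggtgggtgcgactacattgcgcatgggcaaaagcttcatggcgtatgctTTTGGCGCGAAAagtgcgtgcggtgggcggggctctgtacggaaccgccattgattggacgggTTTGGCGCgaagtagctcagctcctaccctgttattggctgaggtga
The Mcm5 promoter held 2 overlapping matches, the first starting 153 bases before the start. The Mcm6 promoter held 3, an overlapping pair and 1 nearer the start. None of the 4 words stood in the Mcm2 window. A match is a description of letters and not a measured binding site.

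Reads assigned to genes, as recovered from the FPKM steps, ranged from 3658368 in control replicate 2 to 20387065 in dd replicate 2, and both control libraries (6415130 and 3658368) were the shallowest. The replicate numbers stood apart across the transcriptome: 16152 to 19745 genes were above 0 in the replicate 1 libraries and 32639 to 46560 in the replicate 2 libraries, and the first principal component (78.4% of the variance) separated the numbers. Actb, encoding beta-actin, was listed at 9006 to 15910 FPKM in replicate 1 and at 55.3 to 76.6 FPKM in replicate 2. All 10 pluripotency markers were above 0 in every library, and they summed to 1471 and 8689 FPKM in control replicates 1 and 2, 1475 and 7042 in sh, 1888 and 10130 in sd and 1912 and 9462 in dd. Some of them differed with the group. In the order control, sh, sd and dd, Pou5f1 was at 83.1, 24.2, 17.8 and 21.03 FPKM in replicate 1 and at 251, 14.7, 130 and 53.1 FPKM in replicate 2, below control within each number in all 3 treated groups. Sox2 was at 200, 177, 207 and 235 FPKM in replicate 1 and at 291, 19.7, 231 and 372 FPKM in replicate 2, lowest in sh replicate 2. Nanog lay between 215 and 335 FPKM. The part of cell state in the members' differences from control was not tested. The 10 fibroblast feeder markers summed to 8.72 to 19.8 FPKM in replicate 1 and 8.85 to 26.2 FPKM in replicate 2, mostly from Fbln1, the 1 marker above 0 in every library. Col3a1, Dcn, Lum and Postn were at 0 in replicate 1 and under 0.4 FPKM in replicate 2, while in control replicate 2 Pdgfrb reached 3.39, Thy1 2.19 and Col1a1 1.67 FPKM. Pdgfrb was called higher in replicate 2 (1.51, limma adjusted p = 0.00553). The 7 primitive endoderm markers summed to 25.3 to 37.3 FPKM in replicate 1 and 1.70 to 10.2 FPKM in replicate 2. The part of these markers in the differences between the numbers below was not tested. Because of this split, the median member difference in every comparison of groups below is also given within each replicate number. This was not done for medians under other settings or with a library left out.

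Levels are given in FPKM, fragments per kilobase of exon and scaled to the library. Comparisons between genes are limited, because the FPKM formula is not given. Reads of some members, such as Mcm7 and Gins2, may also be shared with other genes. The 40 members summed to 840.1 to 1384 FPKM per library, and no member was at 0. Rrm2, the regulatory small subunit of ribonucleotide reductase that makes DNA precursors, was the highest member in every replicate 1 library and held 22.6% to 25.3% of the member sum there. It held 6.46% to 10.4% in replicate 2, where the sliding clamp gene Pcna was the highest in control, sd and dd. Fen1, the flap endonuclease of lagging-strand synthesis, was the only member under a mean of 1 FPKM and was not tested. It was listed at 0.0203 to 0.79 FPKM, which is 1 to 24 reads. On the other strand, Gm10143 overlaps 1909 of its 2422 exonic bases, and Tmem258 also overlaps its exons. The other 39 members entered every test.

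**Figure D1:**
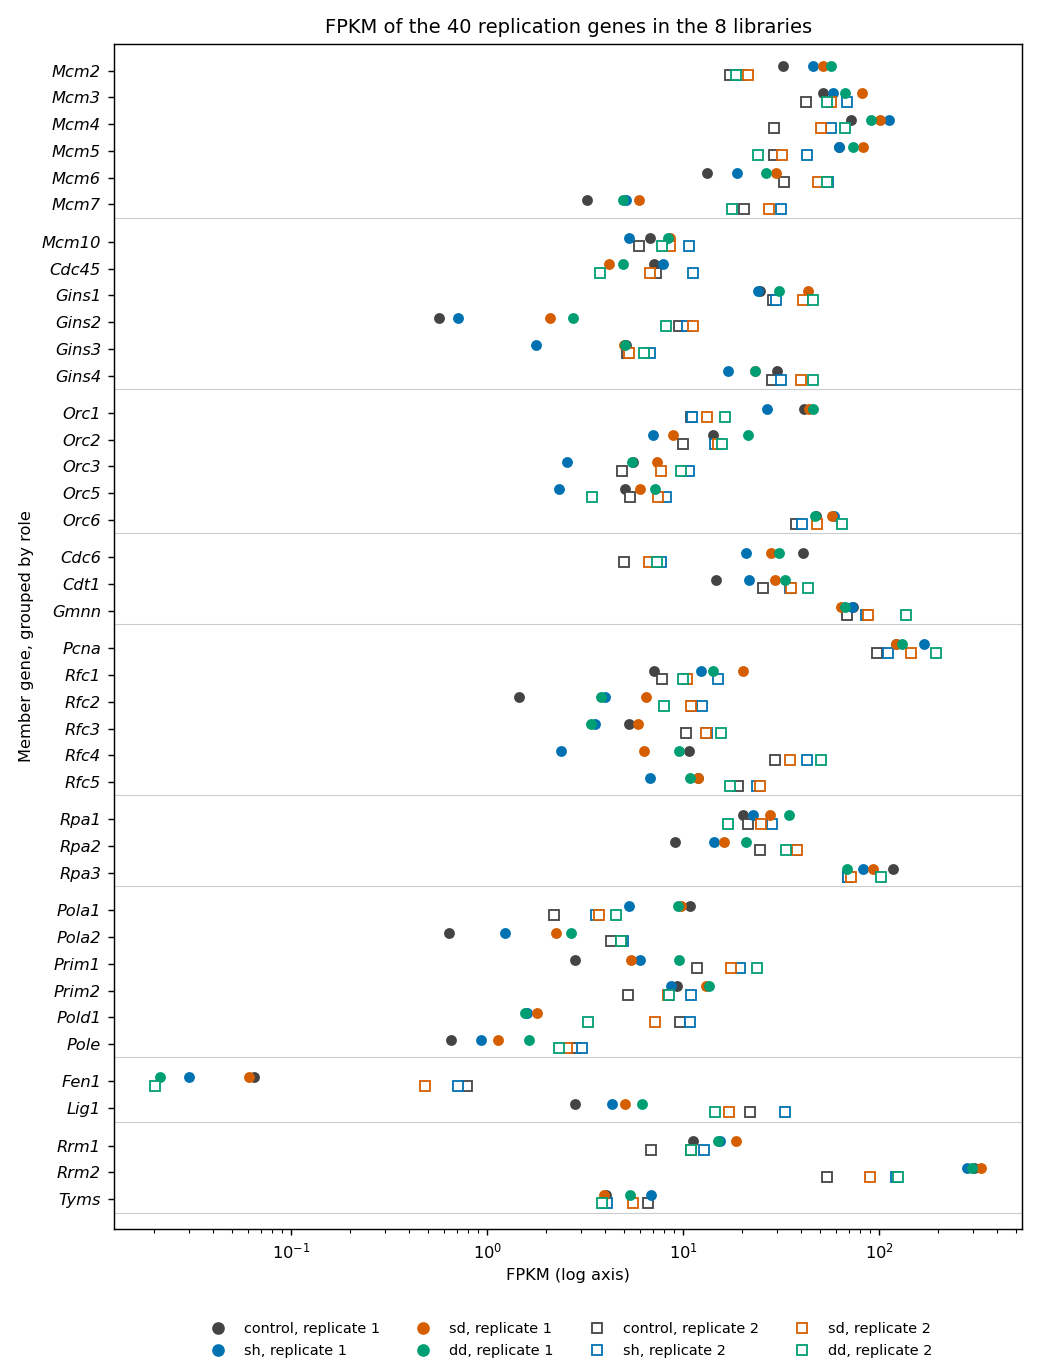
FPKM (log axis) of each of the 40 genes in the 8 libraries, grouped by role, with filled circles for replicate 1 and open squares for replicate 2. For Mcm7, Gins2, Rfc4, Lig1, Cdc6, Orc1 and Rrm2 the circles and squares lie apart whatever the group, while Fen1 lies under 1 FPKM throughout.

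The design compares each treated group with control, and no member was called in any of these comparisons. Differences are on the log2(FPKM + 1) scale, and a gene is called at a Benjamini-Hochberg adjusted p under 0.05 in limma over all 14561 genes tested. For sh, sd and dd against control, 0 of 39 members were called, where 0% of all genes were called in each. At an unadjusted p under 0.05, 0 members stood in each comparison, against 32, 50 and 83 of all genes. With limma's voom on the recovered reads, 0 members were called and 0 stood under an unadjusted 0.05 in each. When the replicate number was a term in the limma fit, 0 were still called, and 2, 1 and 4 of 39 members stood under an unadjusted 0.05, against 480, 945 and 1310 of the 14561 genes. The members' lowest adjusted p with that term was 0.999 for sh, 0.723 for sd and 0.553 for dd. The following values are thus descriptions of 2 libraries a group. Each SE and adjusted p of a member against control below comes from the fit without that term. Its spread therefore includes the gap between the numbers. With the term, the SE was 0.34 for Prim1 in dd, 0.34 for Mcm6 in sd and 0.33 for Cdt1 in dd (limma adjusted p = 0.553, 0.723 and 0.553). Group comparisons below that leave out 1 library also lack the term and mix the numbers.

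In sh, the mean was higher than control for 28 of 39 members (65.5% of all genes), and the median member differed by 0.23, where the median of all genes was 0.15. Within replicate 1 the member median was 0.12 (0.10 for all genes) and within replicate 2 it was 0.49 (0.20 for all genes). In replicate 1, 21 of 39 members were higher than control, and in replicate 2, 38 of 39. Of all 14561 genes, 8258 and 9330 were higher. Members higher within both numbers came to 20, or 51.3%, against 35.2% of all genes, 0 were lower within both, against 10.6%, and 19 had opposite signs in the 2 numbers, against 47.1%. Groups did not overlap for 5 members, all higher in sh (Mcm3, Cdc45, Rfc1, Rpa1 and Rrm1), where the share over all genes is 8.4%, and none lay below (2.13% of all genes). Without sh replicate 2 the member median was -0.07, and without sh replicate 1 it was 0.56.

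In sd, the mean was higher than control for 32 of 39 members (62.9% of all genes), and the median member differed by 0.31, against 0.17 for all genes. The member medians within replicates 1 and 2 were both 0.36, while those of all genes were 0.31 and 0.03. Higher within both numbers were 24 members (61.5%, against 37.5% of all genes), 2 were lower within both (12.7%) and 13 had opposite signs (44%). Mcm3, Mcm10, Gins1, Orc3, Orc5, Orc6, Cdt1, Pcna, Rfc1 and Rpa1, 10 members, lay above control without overlap, where 11.1% of all genes did. Cdc45 alone lay below without overlap (2.69% of all genes). The 6 markers of 2-cell-like cells, a rare state in these cultures, summed to 23.0 and 12.2 FPKM in control replicates 1 and 2. In the same order they summed to 44.0 and 26.7 FPKM in sd, 33.2 and 21.9 FPKM in dd and 22.8 and 18.3 FPKM in sh. Their part in the members' differences was not tested.

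In dd, the mean was also higher for 32 of 39 members (53.6% of all genes). The median member differed from control by 0.34, against 0.06 for all genes, with 0.33 within replicate 1 and 0.49 within replicate 2 (0.28 and -0.13 for all genes). Higher within both numbers were 16 members (41%, against 31% of all genes), 3 were lower within both (15.1%) and 20 had opposite signs in the 2 numbers (48.7%). Mcm3, Mcm10, Gins1, Orc2, Cdt1, Pcna and Rfc1, 7 members, lay above control without overlap (11.2% of all genes), and of the tested members Cdc45 lay below (4.72%). The 3 comparisons share the 2 control libraries, which were also the shallowest, so their values are not independent of each other. Both scalings that centre the libraries gave smaller member medians for sh (0.11 after quantile normalization, 0.08 after median ratio scaling) and sd (0.19 and 0.12), with 0.28 and 0.30 for dd. After quantile normalization 14, 16 and 15 members were higher within both numbers in sh, sd and dd (25.6%, 30.6% and 29.5% of all genes), and after median ratio scaling 13 in each (25.2%, 27.9% and 27.3%).

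**Figure D2:**
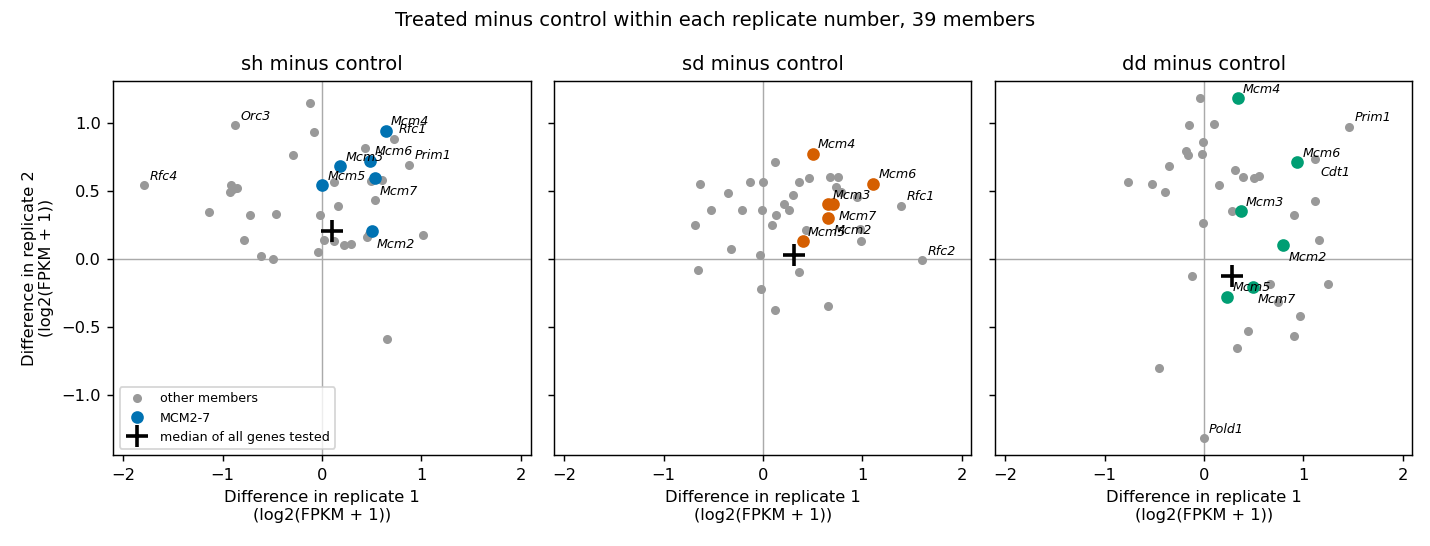
Difference from control within replicate 1 (x axis) and within replicate 2 (y axis), in log2(FPKM + 1), for 39 members, with the MCM2-7 genes coloured and a cross at the median of all genes tested. In sh 38 of 39 members lie above 0 on the y axis but 21 lie right of 0 (9330 and 8258 of all 14561 genes were higher). In sd the 6 helicase genes all lie in the upper right part of the panel, and in dd Mcm5 and Mcm7 lie under 0 in replicate 2.

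The MCM2-7 genes encode the 6 subunits of the replicative helicase. Values are listed in the order control, sh, sd and dd. Mcm6 had 13.3, 18.8, 29.9 and 26.3 FPKM in replicate 1 and 32.8, 54.8, 48.6 and 54.3 FPKM in replicate 2. Control was the lowest library within each number, though the groups overlapped because replicate 2 was higher than replicate 1. The Mcm6 difference from control was 0.83 in sd (SE 0.83, limma adjusted p = 1, within-number differences 1.11 and 0.55) and 0.82 in dd (SE 0.83, limma adjusted p = 1, 0.94 and 0.71). Mcm4 had 71.3, 112, 101 and 90.4 FPKM in replicate 1 and 29.0, 56.8, 50.3 and 67.1 FPKM in replicate 2. Control was again the lowest within each number. In sh the Mcm4 difference was 0.79 (SE 0.78, limma adjusted p = 1), with 0.64 and 0.94 within the numbers. Without control replicate 2, which leaves control with its replicate 1 library alone, it was 0.16. Without control replicate 1, the Mcm6 difference was 0.21 in sd and 0.20 in dd. Such fits, here and below, set 1 control library against treated libraries of both numbers. The gap between the numbers (1.11 for Mcm6) therefore enters these values.

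Mcm3 was the one helicase gene whose treated libraries all lay above both controls. It had 51.3, 58.2, 81.2 and 66.7 FPKM in replicate 1 and 42.5, 68.8, 56.4 and 54.2 FPKM in replicate 2. Mcm2, whose product contacts histones at the fork, had 32.3, 46.2, 51.8 and 56.8 FPKM in replicate 1 and 17.2, 19.96, 21.4 and 18.6 FPKM in replicate 2. Its treated libraries were above control within each number, by little in replicate 2. Mcm5 had 62.5, 62.5, 83.0 and 73.4 FPKM in replicate 1 and 29.2, 42.9, 32.0 and 23.9 FPKM in replicate 2, with dd below control in the latter. Mcm7 had 3.24, 5.12, 5.93 and 4.94 FPKM in replicate 1 and 20.5, 31.4, 27.4 and 17.6 FPKM in replicate 2, again with dd below control in replicate 2. Of its 31-base words, 26.8% also occur in other transcripts (among them Gm5487), so its reads may be split.

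The 6 genes were thus higher than control within both numbers in 5 cases for sh (all but Mcm5), 6 for sd and 4 for dd (all but Mcm5 and Mcm7), with median differences of 0.49, 0.54 and 0.40. After quantile normalization the counts were 4, 6 and 4, and after median ratio scaling 4, 4 and 3. Mcm6 stayed above control within both numbers under both scalings in sh, sd and dd. Mcm4 did so in sh, but under median ratio scaling its replicate 1 difference was -0.00098 in sd and -0.06 in dd.

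**Figure D3:**
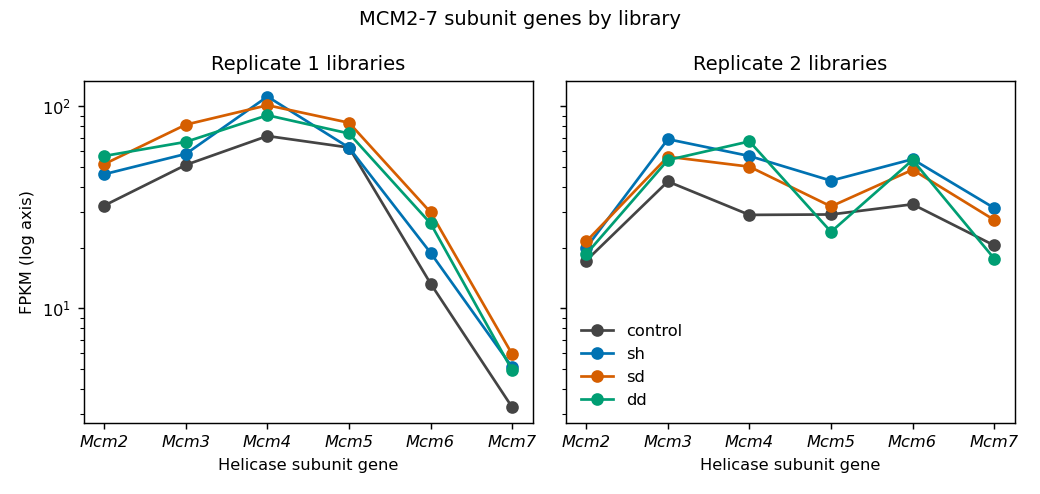
FPKM (log axis) of the 6 helicase subunit genes, 1 line per group, in the replicate 1 libraries (left) and the replicate 2 libraries (right). In replicate 1 Mcm7 is 17.1 to 22 times below Mcm4 in each group, and in replicate 2 the highest and lowest subunits differ by 2.46 to 3.8 times.

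Among the helicase partners, Cdc45, a subunit of the active helicase, was the member lower than control without overlap in both sd and dd. It had 7.11, 7.85, 4.16 and 4.96 FPKM in replicate 1 and 7.25, 11.2, 6.79 and 3.75 FPKM in replicate 2. Both sd and both dd libraries lay below both controls, and both sh libraries above. The difference from control was -0.37 in sd (SE 0.52, limma adjusted p = 1, within-number differences -0.65 and -0.08, and -0.07 without sd replicate 1) and -0.62 in dd (SE 0.52, limma adjusted p = 1, -0.45 and -0.80). Gins1, a GINS subunit, had 24.7, 24.0, 43.3 and 30.9 FPKM in replicate 1 and 28.9, 29.9, 40.8 and 46.0 FPKM in replicate 2, with sd and dd above both controls and sh near them. Mcm10, which helps to activate the helicase, had 6.73, 5.31, 8.54 and 8.39 FPKM in replicate 1 and 5.94, 10.7, 8.59 and 7.82 FPKM in replicate 2. The sh libraries lay on both sides of control. Gins3 and Gins4 had opposite signs within the numbers in sh (-1.14 and 0.34, and -0.79 and 0.14).

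Of the origin recognition genes, 1 of 5 was higher than control within both numbers in sh, 4 in sd and 2 in dd. Orc6 had 47.5, 58.5, 57.3 and 46.7 FPKM in replicate 1 and 37.5, 40.5, 48.3 and 64.7 FPKM in replicate 2, and both sd libraries exceeded both controls. Orc3 had 5.53, 2.56, 7.35 and 5.50 FPKM in replicate 1 and 4.89, 10.6, 7.67 and 9.70 FPKM in replicate 2. The sh libraries were the lowest and the highest of the 8. Orc5 and Orc2 were also below control in sh replicate 1 and above it in sh replicate 2, with differences of -0.86 and 0.52 for Orc5 and -0.93 and 0.49 for Orc2 within replicates 1 and 2.

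The licensing factors did not move as one. Cdt1, which loads the helicase together with Cdc6, had 14.7, 21.7, 29.4 and 33.2 FPKM in replicate 1 and 25.6, 34.9, 35.4 and 43.0 FPKM in replicate 2. Control was the lowest and dd the highest within each number, and sd and dd did not overlap control. The dd difference was 0.92 (SE 0.61, limma adjusted p = 1), with 1.12 and 0.73 within the numbers, and it was above 0 under both other scalings. Gmnn, encoding geminin, which binds Cdt1 and blocks relicensing, had 73.7, 72.5, 63.7 and 66.5 FPKM in replicate 1 and 68.5, 85.6, 87.9 and 136 FPKM in replicate 2. In replicate 1 the treated libraries were at or below control, and in replicate 2 above it. Cdc6, an ATPase of loading, had 40.7, 20.98, 28.1 and 30.8 FPKM in replicate 1 and 4.97, 7.67, 6.68 and 7.35 FPKM in replicate 2, so its treated libraries were below control in the first and above it in the second.

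In the clamp and clamp loader group, Rfc1, the large subunit of the loader, was above both controls in all 6 treated libraries. It had 7.09, 12.4, 20.2 and 14.2 FPKM in replicate 1 and 7.76, 15.1, 10.4 and 9.92 FPKM in replicate 2. The sh difference was 0.80 (SE 0.57, limma adjusted p = 1), with 0.72 and 0.88 within the numbers. Pcna had 121, 169, 122 and 131 FPKM in replicate 1 and 97.6, 111, 144 and 194 FPKM in replicate 2. Both sd and both dd libraries exceeded both controls, by 0.00098 for sd within replicate 1, and 23.3% of its 31-base words occur in other transcripts, Pcna-ps2 among them. Rfc4, a small loader subunit, had 10.7, 2.37, 6.28 and 9.46 FPKM in replicate 1 and 29.2, 43.0, 35.0 and 50.2 FPKM in replicate 2. Its treated libraries lay below control in replicate 1 and above it in replicate 2. Rfc5, another small subunit, was lower than control in dd within both numbers (-0.12 and -0.13), and the fitted difference of -0.13 (SE 0.78, limma adjusted p = 1) was 0.19 without control replicate 2. After median ratio scaling its replicate 2 difference was 0.16.

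Replication protein A coats single-stranded DNA. Its middle subunit gene Rpa2 had 9.11, 14.4, 16.1 and 21.01 FPKM in replicate 1 and 24.8, 37.5, 38.1 and 33.4 FPKM in replicate 2. Control was lowest within each number. The sd difference was 0.68 (SE 0.83, limma adjusted p = 1), with 0.76 and 0.60 within the numbers, and 0.01 without control replicate 1. The small subunit gene Rpa3 had 117, 82.7, 93.2 and 68.4 FPKM in replicate 1 and 68.8, 68.9, 72.1 and 102 FPKM in replicate 2, so that the treated libraries were below control in replicate 1 and at or above it in replicate 2.

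Among the polymerases and primase, Prim1, the catalytic subunit of primase, had the largest difference in dd of the 39 members. It had 2.82, 6.02, 5.39 and 9.54 FPKM in replicate 1 and 11.7, 19.5, 17.4 and 23.9 FPKM in replicate 2. Control was lowest and dd highest within each number, although the groups overlapped across the numbers. The difference from control was 1.22 in dd (SE 0.97, limma adjusted p = 1, within-number differences 1.46 and 0.97) and 0.78 in sh (SE 0.97, limma adjusted p = 1, 0.88 and 0.69). The direction was the same within both numbers under both other scalings, but without control replicate 1, which leaves control with its replicate 2 library alone, the difference was 0.35 in dd and -0.09 in sh. Pold1, the catalytic subunit of polymerase delta, had 1.57, 1.60, 1.79 and 1.57 FPKM in replicate 1 and 9.68, 10.8, 7.18 and 3.27 FPKM in replicate 2. In the FPKM as deposited, the dd difference of -0.66 (SE 1.05, limma adjusted p = 1) came from replicate 2 (-1.32, against -0.0022 in replicate 1). Without control replicate 2 it was 0.36. Within replicates 1 and 2 the dd difference was -0.30 and -1.15 after quantile normalization, and -0.27 and -1.03 after median ratio scaling. Pola1, the catalytic subunit of polymerase alpha, had 10.8, 5.31, 9.76 and 9.39 FPKM in replicate 1 and 2.20, 3.57, 3.72 and 4.53 FPKM in replicate 2, with control highest in the first and lowest in the second.

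In the nucleotide supply group, Rrm1, the large subunit of ribonucleotide reductase, had 11.2, 15.4, 18.6 and 15.1 FPKM in replicate 1 and 6.88, 12.8, 10.9 and 10.9 FPKM in replicate 2. Control was lowest within each number. The sd difference was 0.64 (SE 0.58, limma adjusted p = 1), with 0.68 and 0.60 within the numbers. Its partner Rrm2 had 304, 280, 330 and 295 FPKM in replicate 1, where treated and control libraries were close, and 54.2, 121, 89.2 and 124 FPKM in replicate 2, where control was lowest. Tyms, thymidylate synthase, had 4.02, 6.88, 3.96 and 5.33 FPKM in replicate 1 and 6.64, 4.09, 5.55 and 3.85 FPKM in replicate 2. Its sd difference of -0.12 (SE 0.54, limma adjusted p = 1) stood at -0.02 and -0.22 within the numbers, and was 0.18 without control replicate 2.

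Between the treated groups, 0 of 39 members were called in sd against sh, dd against sh or dd against sd, where 0% of all genes were called in each. At an unadjusted p under 0.05 there were 0 members in each, against 13, 14 and 8 of all genes, and voom called 0 members in each. With the replicate number as a term in limma, 0 members were called. At an unadjusted p under 0.05 that fit held 0, 1 and 0 members, against 330, 620 and 147 of all genes. Voom with the term held 0, 3 and 0 members there, against 451, 1202 and 354 of all genes. The member medians were 0.12, 0.12 and 0.01 (0.0047, -0.09 and -0.09 for all genes). Within replicates 1 and 2 the sd and sh libraries differed by a member median of 0.41 and -0.17 (0.18 and -0.18 for all genes). The dd and sh libraries differed by 0.44 and -0.08 (0.13 and -0.30 for all genes). In both comparisons the sign depended on the number, for the members and for all genes. The dd and sd libraries differed by 0.02 and 0.0046 (-0.01 and -0.11 for all genes). Without sh replicate 1 the member median was -0.19 for sd against sh and -0.21 for dd against sh.

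The replicate numbers, compared over 4 libraries each with group as a term, gave the only calls. Of the 39 members, 20 were called, where 61.3% of all genes were called. Replicate 2 was higher for 13 members (46.6% of all genes were called higher) and lower for 7 (14.6% of all genes were called lower). The 4 libraries of one number did not overlap the other 4 for 14 members higher in replicate 2 (41.9% of all genes) and 7 lower (14.2%). The member median was 0.22 and that of all genes was 0.73, so relative to all genes the typical member was lower in replicate 2. After quantile normalization, which brings the median of all genes to 0.02, the member median was -0.32, with 9 members called higher and 15 lower (4015 and 4343 of all genes). After median ratio scaling, with all genes at 0.25, it was -0.39, with 8 called higher and 12 lower (4990 and 3623 of all genes).

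The 13 higher members were Rfc4, Gins2, Mcm7, Lig1, Pold1, Prim1, Rfc3, Rfc2, Pola2, Rpa2, Mcm6, Rfc5 and Pole. Of these, 7 were called higher under all 3 scalings: Rfc4, Gins2, Mcm7, Lig1, Pold1, Prim1 and Rfc2. Rfc4 rose by 2.42 (SE 0.36, limma adjusted p = 0.000468), and Mcm7 by 2.11 (SE 0.25, limma adjusted p = 0.000133), in all 4 groups each. Gins2, a GINS subunit, had 0.571, 0.711, 2.099 and 2.74 FPKM in replicate 1 and 9.47, 10.48, 11.2 and 8.20 FPKM in replicate 2, a difference of 2.19 (SE 0.32, limma adjusted p = 0.0004). Its exons overlap those of Gse1 on the other strand over 2758 bases, and the use of strand in counting is unknown, so reads of the 2 genes cannot be told apart. Lig1, the ligase that joins Okazaki fragments, had 2.80, 4.34, 5.02 and 6.14 FPKM in replicate 1 and 22.0, 33.1, 17.0 and 14.4 FPKM in replicate 2, a difference of 1.99 (SE 0.32, limma adjusted p = 0.000746). None of the replicate 1 libraries reached a replicate 2 library in these 4 genes.

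The 7 lower members, called lower under all 3 scalings, were Cdc6, Rrm2, Orc1, Mcm2, Mcm5, Pola1 and Mcm4. Cdc6 fell by 2.0 (SE 0.29, limma adjusted p = 0.000393) and Rrm2 fell by 1.70 (SE 0.26, limma adjusted p = 0.000557). Orc1, the origin subunit that recruits Cdc6, had 41.1, 26.6, 43.8 and 45.8 FPKM in replicate 1 and 10.9, 11.1, 13.2 and 16.3 FPKM in replicate 2. It fell by 1.52 (SE 0.24, limma adjusted p = 0.000619), and Mcm2 fell by 1.21 (SE 0.24, limma adjusted p = 0.0021). Each of these 4 was lower in replicate 2 in all 4 groups, without overlap.

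**Figure D4:**
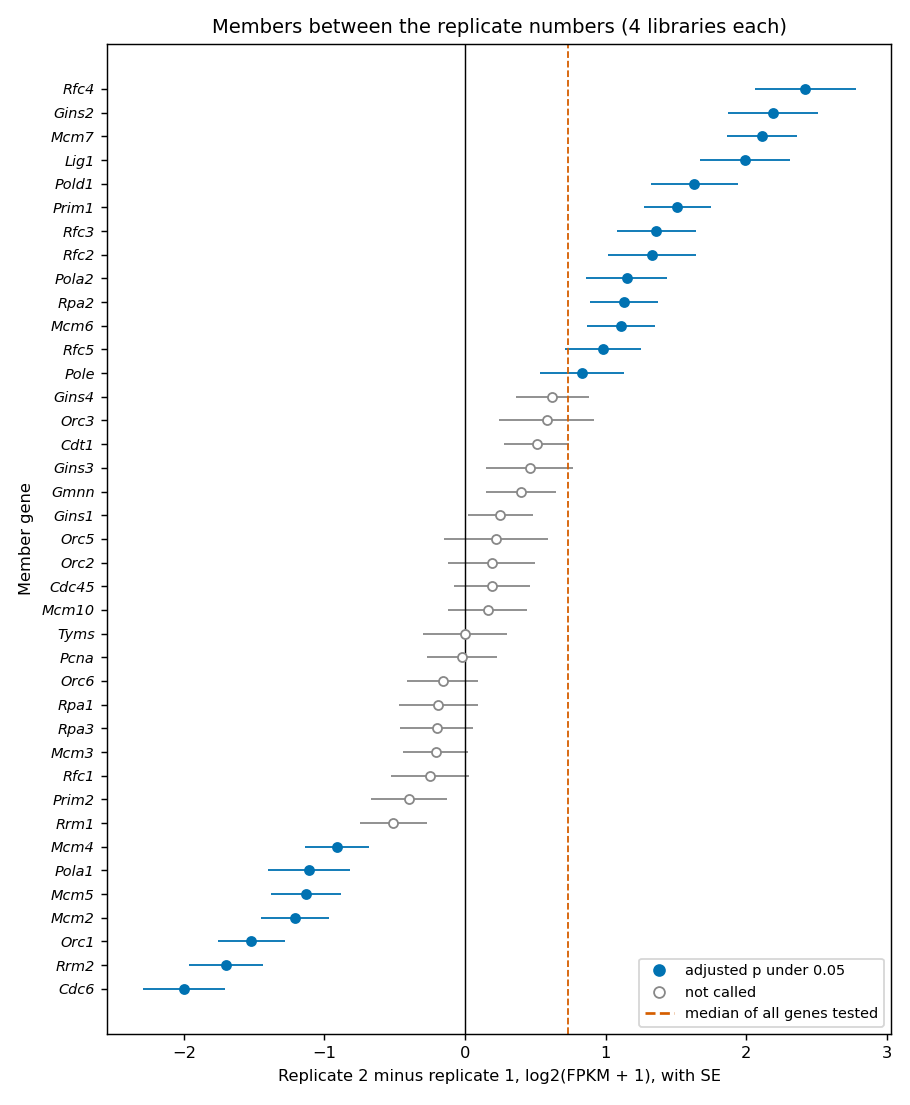
Replicate 2 minus replicate 1 in log2(FPKM + 1), with its standard error, for 39 members, over 4 libraries each with group as a term. Filled points are called (13 higher, 7 lower), and the dashed line at 0.73 is the median of all genes tested, to the right of most members.

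Genes of 1 complex lay on both sides of this split. Mcm2, Mcm4 and Mcm5 fell and Mcm6 and Mcm7 rose, though Mcm6 (1.11, limma adjusted p = 0.00371) missed the threshold after quantile normalization (limma adjusted p = 0.0599) and median ratio scaling (0.13). The highest MCM2-7 gene was 17.1 to 22 times the lowest in replicate 1 (Mcm4 over Mcm7) and 2.46 to 3.8 times in replicate 2. For the 4 GINS genes the ratio was 11.3 to 52.4 in replicate 1, with Gins2 lowest, and 4.64 to 7.72 in replicate 2, with Gins3 lowest. In polymerase alpha-primase, Pola1 fell while Prim1 and Pola2 rose (Pola2 missed the threshold after quantile normalization, limma adjusted p = 0.106), and the lowest gene was Pola2 in each replicate 1 library and Pola1 in each replicate 2 library. In ribonucleotide reductase, Rrm2 exceeded Rrm1 by 17.8 to 27.1 times in replicate 1 and by 7.89 to 11.4 times in replicate 2. Where the promoter was matched, an E2F word stood in 4 of 10 members called higher and 4 of 6 called lower, which are counts without a test.

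The transcripts' GC content and the genes' exon length moved with several of these differences. Between the replicate numbers, the Spearman correlation of the difference with GC was 0.312 over the 39 members and 0.315 over the 14549 tested genes with a value. The members called higher had a median GC of 51.8% and those called lower 47.3%, with 48.4% over the members tested. Within replicate 2, the correlation of the difference from control with GC over the 39 members was -0.272 for sh, -0.5 for sd and -0.586 for dd (-0.356, -0.423 and -0.517 over all genes). Within replicate 1 it was 0.263, 0.292 and 0.344 (0.0779, -0.0105 and -0.00666 over all genes). With exon length, the correlation of the difference between the numbers was -0.0682 over the members and -0.526 over all genes. For the difference from control over the members it was 0.189, 0.334 and 0.391 in sh, sd and dd within replicate 1 (-0.0672, 0.0185 and -0.078 over all genes). Within replicate 2 it was 0.171, -0.0893 and -0.433 (0.283, 0.193 and 0.282 over all genes). These are descriptions across genes of the same libraries, and the part of GC content or length in the members' differences was not tested.

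**Figure D5:**
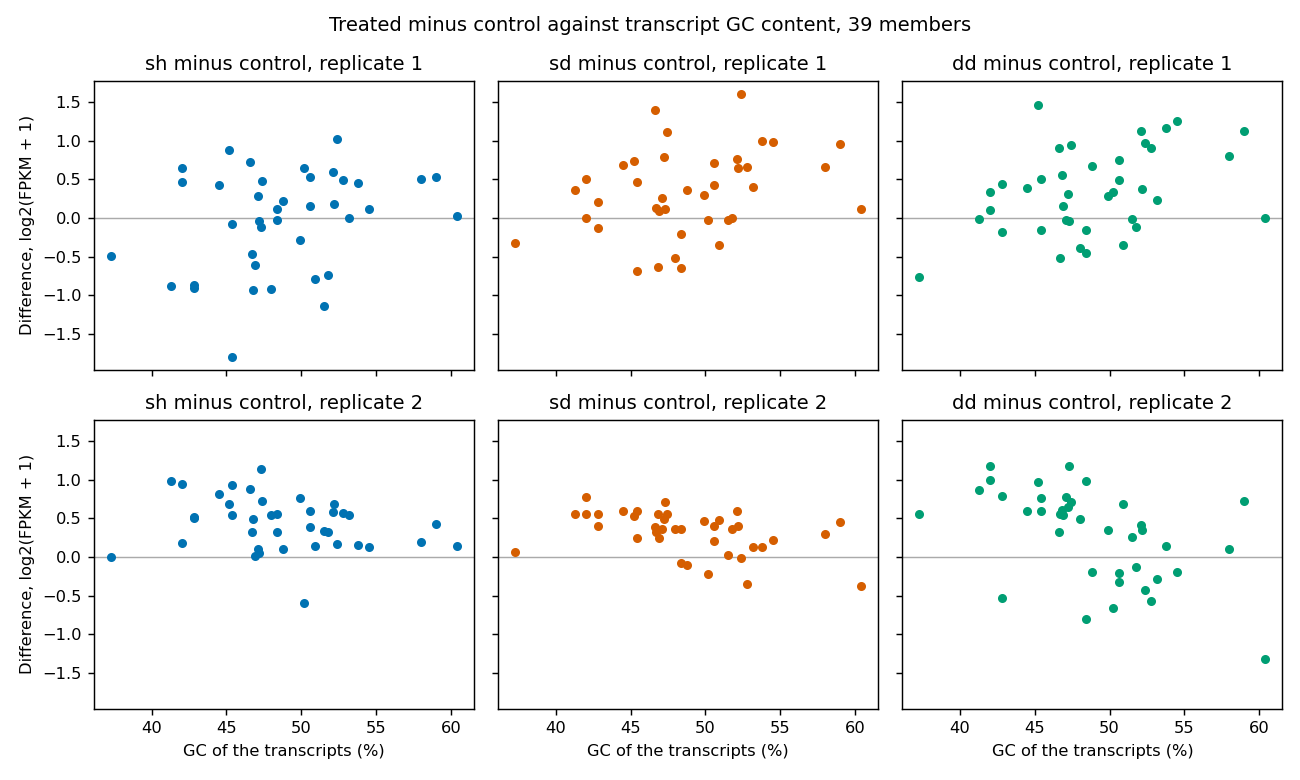
Difference from control in log2(FPKM + 1) against the GC content of the transcripts (%), for 39 members, in replicate 1 (top) and replicate 2 (bottom). In replicate 2 of sd and dd the GC-poor members lie higher and the GC-rich members lower (-0.5 and -0.586), while in replicate 1 the sign is the opposite (0.292 and 0.344).

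The rest of the pathway was read from 4 further lists, in which 0 genes were called against control in sh, sd or dd by limma. At an unadjusted p under 0.05 there were 0 in each list. With the replicate number as a term, 0 were still called. At an unadjusted limma p under 0.05 that fit held 3 fork factors, 2 E2F and Rb regulators and 1 chromatin gene in dd. It held 1 E2F and Rb regulator in sh and 0 genes in sd. Of all 14561 genes, 1310, 480 and 945 stood there in dd, sh and sd. Of 23 further origin and fork factors, 21 were tested, with medians of 0.20, 0.33 and 0.34 in sh, sd and dd. The medians of all genes were 0.15, 0.17 and 0.06. Within replicate 1 the fork factors had -0.16, 0.24 and 0.29 (0.10, 0.31 and 0.28 for all genes). Within replicate 2 they had 0.57, 0.41 and 0.54 (0.20, 0.03 and -0.13 for all genes). Dbf4, the activating subunit of the kinase that fires origins, had 6.50, 8.81, 9.27 and 8.82 FPKM in replicate 1 and 6.36, 13.0, 11.5 and 15.6 FPKM in replicate 2, so that all 6 treated libraries exceeded both controls. The 9 tested of 10 further nucleotide supply genes had medians of 0.36, 0.24 and 0.29. These were 0.36, 0.48 and 0.25 within replicate 1 and 0.22, 0.13 and 0.22 within replicate 2. The 11 tested of 12 genes of chromatin assembly and licensing control had 0.36, 0.35 and 0.33. Within replicate 1 the chromatin genes had 0.16, 0.36 and 0.30, and within replicate 2 0.56, 0.35 and 0.57. The 22 tested of 24 E2F and Rb regulators had 0.02, 0.09 and -0.10. These were 0.00042, 0.34 and 0.19 within replicate 1 and 0.23, -0.01 and -0.11 within replicate 2. E2f1, an activating E2F, had 2.52, 0.715, 1.78 and 1.80 FPKM in replicate 1 and 11.01, 11.6, 8.73 and 3.81 FPKM in replicate 2. Rbl1, encoding the E2F partner p107, had 1.33, 4.03, 2.16 and 4.81 FPKM in replicate 1 and 2.14, 4.91, 3.801 and 5.48 FPKM in replicate 2, lowest in control within each number. Dbf4, E2f1 and Rbl1 were chosen after their values were seen. Between the replicate numbers, 9 of 21 fork factors, 3 of 9 nucleotide genes, 4 of 11 chromatin genes and 8 of 22 regulators were called, where 61.3% of all genes were.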

How the data were processed

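RNA-seq of 8 mouse embryonic stem cell libraries was deposited as FPKM per gene by the authors, made with CASAVA 1.4, HISAT2 and the mm10 build, per the submitters' processing notes. The sources used here do not give the counting program, annotation, FPKM formula or use of strand. Reads per gene were recovered from the FPKM steps (98.3% to 98.9% of values under 100 reads were whole within 0.02). Symbols and exons came from GENCODE M21 (52081 of 52338 rows matched). Differences of log2(FPKM + 1) were tested in R 4.3.3 with limma 3.58.1, trend eBayes, 4 groups together, genes at a mean of at least 1 FPKM (14561), two-sided, with Benjamini-Hochberg adjustment over all genes. The scale understates changes of low genes. Scripts were tested on simulated data. The members, lists and tests were chosen with earlier results of these data known. Effects are named for members with the same sign within both numbers, up to 3 a direction ranked by the smaller difference, and up to 4 a direction between the numbers, ranked by difference among those without overlap. Differences given for other members were chosen after their values were seen. Alternatives were other pseudocounts, filters, scalings, voom on recovered reads, a replicate block and leaving out each library. The counts of directions under other scalings were chosen after seeing the data.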

Additional observations from a re-analysis of the deposited data

How the results depend on the processing

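In every alternative, 0 members were called in each comparison of groups, and 17 to 24 between the replicate numbers. Same-numbered libraries deviated together (correlations of 0.75 to 0.893 over 14561 genes), but the labels do not say what a number is. With the replicate block, 0 members were called in every comparison, and the median of sd against control was 0.31. The median of sd against control was 0.33 with pseudocounts of 0.5 and 0.1, 0.19 after quantile normalization, 0.12 after median ratio scaling with and without the replicate block, 0.39 with voom and 0.30 with voom and the block. The median of dd against sd was 0.02 with a pseudocount of 0.1, 0.00048 without a filter and at a mean of at least 5 FPKM, 0.08 after quantile normalization, 0.16 after median ratio scaling with and without the block, 0.02 with voom and -0.01 with voom and the block. Between the numbers it was -0.32 with quantile normalization and -0.39 with median ratio scaling. With the latter, 13 members were higher within both numbers in sh and 13 in sd. The cause of these shifts was not tested.

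Leaving out 1 library at a time, the median ranged from -0.07 to 0.56 for sh against control, 0.18 to 0.41 for sd against control, -0.19 to 0.55 for sd against sh, -0.21 to 0.40 for dd against sh and -0.06 to 0.13 for dd against sd. The difference from control ranged from -0.09 to 1.65 for Prim1 in sh, -0.42 to 0.18 for Tyms in sd, -0.44 to 0.19 for Rfc5 in dd and -1.69 to 0.36 for Pold1 in dd. Each such fit leaves an arm with 1 library, assumed to vary like the other groups, and so mixes the numbers. The other 409 values of named genes kept their direction and their side of the threshold but not their size. Across the alternatives run, differences spanned 0.16 to 1.43 for Mcm4 in sh, 0.01 to 1.36 for Rpa2, 0.28 to 0.99 for Rrm1, 0.21 to 1.46 for Mcm6 and -0.66 to -0.07 for Cdc45 in sd, and 0.35 to 2.08 for Prim1, 0.20 to 1.45 for Mcm6 and 0.54 to 1.30 for Cdt1 in dd. Fen1 had 1 to 24 reads, with 7 in the shallowest library and 1 in the deepest, and the part of depth in its level was not tested.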
